A study of Mus musculus with 15 samples.

Results

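The genes described here are 10 mouse genes of the contractile and structural cytoskeleton: Tagln, Tagln2, Acta2, Cnn1, Cnn2, Myl9, Tpm1, Tpm2, Vim and Col1a2. They were chosen by name around Tagln, because Tagln stood strongly higher in embryonic stem cells (ESCs) that overexpress Zscan4. The table of ESC values holds 51627 genes, 9 of the 10 among them, and Cnn1 was not analysed here in ESCs. The table of 2-cell embryo values holds 53564 genes and all 10. By function, 8 of the 10 belong to the actin cytoskeleton, whereas Vim encodes an intermediate filament protein and Col1a2 a secreted collagen chain.

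RNA was measured in 15 mouse libraries. The 4 ESC libraries came from J1 cells, a mouse ESC line grown without feeder cells and at passage label PN+8: 2 controls of wild type genotype and 2 of genotype Zscan4 OE. The other 11 came from 2-cell embryos: 5 controls of wild type genotype and 6 of genotype Zscan4 RNAi. The labels do not name the vector, the clone, the RNAi reagent or the number of embryos in a library, they call the molecule genomic DNA although each title says RNA-Seq, and they list the J1 culture conditions for the embryos too. Nor do they say that replicates were separate cultures or embryo pools. The p-values therefore measure the spread among the libraries at hand, which may be technical.

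Smooth muscle, fibroblasts and many cultured cells hold bundles of actin filaments that contract when myosin II pulls on them. Tropomyosins lie along the filament, calponins and transgelins bind and stabilise it, and the phosphorylated regulatory light chain switches myosin on. Many of these genes are driven by the transcription factor SRF together with actin-sensing cofactors of the myocardin family, through a short AT-rich element called the CArG box, and several respond to TGF-beta and to YAP. The Zscan4 family of zinc finger genes is active in 2-cell embryos and, at any moment, in few ESCs.

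Values are the authors' normalised reads: reads per gene divided by 1 factor per library. Depth, as reads assigned to genes, was 21820093 to 26555027 in the ESCs and 695524 to 1432566 in the embryos, where 1 read is worth 0.687 to 1.39 normalised reads. The Zscan4 genes summed to 152 and 212 in the ESC controls and to 20005 and 19449 in the overexpressing ESCs. In the embryos their sum ran from 345 to 1064 in the controls and from 13.9 to 383 with RNAi, so the ranges of the embryo groups overlapped. Summed ESC marker genes, all 8 of them measured, reached 87382 to 87565 in control and 100357 to 119021 in overexpressing ESCs. In bulk libraries, fewer cells of a type and less RNA per cell cannot be told apart. For all 9 contractile genes measured in ESCs, the SD between the controls was smaller than that between the overexpression libraries; relative to the mean, Col1a2 was the exception (16.7 of 52.98 against 25.2 of 257.6).

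To show the promoters that these genes carry, 300-base windows around RefSeq start sites (250 bases before, 50 after; build GRCm38.p6) were searched for the CArG box, on both strands since the pattern reads the same on each. RefSeq windows were found for 9 of the 10 genes, Tagln having no entry. Of all 32851 windows, 535 (1.629%) held a box with all 10 bases matching and 6936 (21.11%) one with at least 9 matching. Among the 9 genes, 2 held a full match (Cnn2 and Myl9) and 5 at least 9 matching bases (those and Acta2, Tpm1 and Col1a2). The stretches below are the matches nearest to the start site of the 4 actin genes, with the full match also given for Myl9, because SRF is known to bind this element; capitals mark the matched 10 bases.
Cnn2, chr10:79988534-79988563, plus strand, full match, 56 bases before the start: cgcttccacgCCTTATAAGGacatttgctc
Myl9, chr2:156775293-156775322, plus strand, full match, 161 bases before the start: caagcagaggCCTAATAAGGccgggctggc
Myl9, chr2:156775355-156775384, plus strand, 9 of 10 bases, 99 bases before the start: cattcttctgCCTTGTAAGGccgggcggcc
Acta2, chr19:34255388-34255417, minus strand, 9 of 10 bases, 34 bases before the start: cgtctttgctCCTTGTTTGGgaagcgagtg
Tpm1, chr9:67049274-67049303, minus strand, 9 of 10 bases, 80 bases before the start: acaagcttttCCAAAAAAGTattggctgtc
The Acta2 window held another 9-base match further upstream, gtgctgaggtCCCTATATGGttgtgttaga, at chr19:34255438-34255467. The windows of Tagln2, Cnn1, Tpm2 and Vim held no match at either stringency. A match is a run of letters and not a measured binding site, and its absence says only that the letters are not in that window.

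The first comparison sets overexpressing against control ESCs, the contrast by which these genes came to be chosen, so its values for them are a description without a test. Tagln stood 18.7-fold higher with Zscan4 overexpression, and Col1a2, Myl9, Cnn2 and Tpm1 between 3.37-fold and 4.86-fold higher. Acta2, Vim and Tpm2 stood 1.40-fold to 1.57-fold higher. Tagln2 did not separate the groups. For 8 of the 9 genes both overexpression libraries lay above both controls, where 34.2% of all 20888 genes tested did, and the median log2 difference was 1.75 against -0.02 over all genes. Nothing is read from that count, since the contrast chose the genes.

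Tagln (mm10 chr9:45929619-45936058, minus strand) encodes transgelin, also called SM22-alpha, an actin-binding protein of smooth muscle and an early marker of that lineage. Its level was 234.3 and 239.7 normalised reads in control libraries 1 and 2, and 3585 and 5262 in overexpression libraries 1 and 2. Both overexpression libraries stood far above both controls, 15.1-fold and 22.2-fold over the control mean. The means were 237 ± 3.79 and 4424 ± 1186 (SD, n = 2 each), a difference of 4.19 on the log2(value + 1) scale. Of all genes tested, 250 (1.20%) had a log2 difference at least as large.

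Part of the Tagln locus is shared with other genes. The exons of Pcsk7, a proprotein convertase gene on the opposite strand, cover 108 of the 1988 exon bases of Tagln (5.433%), and those of the antisense gene Gm48529 cover 1241 (62.42%). The strand setting of the counting is not given in the sources used here, so reads of Tagln and of its antisense partner cannot be told apart, and Gm48529 was not analysed here in ESCs. Pcsk7 itself rose 2.79-fold in ESCs, from 177.1 ± 9.50 to 494.8 ± 17.0 (limma adjusted p = 0.0187, log2 fold change 1.48, SE 0.20).

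Tagln2 (chr1:172500047-172507380, plus strand), the broadly expressed paralog of Tagln, was the most abundant of the 9 per length of exon in ESCs. Control libraries held 7642 and 7591 normalised reads, and overexpression libraries 7480 and 12583. The first overexpression library lay below both controls and the second above them, so the groups overlapped. The log2 difference was 0.35 over all libraries and -0.03 without overexpression library 2.

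The calponins and the myosin light chain differed more. Cnn2 (chr10:79988584-79996062, plus strand), the calponin of non-muscle cells, stood at 1389 and 1427 normalised reads in controls against 4280 and 6540 in overexpressing ESCs, 3.84-fold higher. Myl9 (chr2:156775420-156781658, plus strand), a regulatory light chain of myosin II in smooth muscle and other contractile cells, stood at 274 and 310 against 971 and 1823, 4.78-fold higher. In both genes the lowest overexpression library exceeded the highest control. Their promoter windows hold the full CArG matches printed above. Col1a2, Tpm1 and Acta2, with 9-base matches only, stood 4.86-fold, 3.37-fold and 1.57-fold higher. Tagln2, Tpm2 and Vim, without a match, stood 1.32-fold, 1.40-fold and 1.44-fold higher, with overlapping groups for Tagln2. A link between matches and levels was not tested.

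The tropomyosins and smooth muscle actin spread over a wide range of differences. Tpm1 (chr9:67022590-67049406, minus strand), which yields muscle and non-muscle tropomyosins by alternative splicing, stood at 2784 and 2845 in controls against 8643 and 10312, 3.37-fold higher. Tpm2 (chr4:43514711-43523765, minus strand), beta-tropomyosin, stood at 688 and 681 against 773 and 1148, 1.40-fold higher. Acta2 (chr19:34241090-34255590, minus strand), the alpha-actin of smooth muscle and myofibroblasts, stood at 876 and 795 against 1160 and 1464, 1.57-fold higher. None of the 3 overlapped between groups, yet the first Tpm2 library with overexpression lay close to the controls.

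Vim and Col1a2 are commonly read as markers of mesenchymal cells. Vim (chr2:13573927-13582826, plus strand), the vimentin gene, stood at 3754 and 3622 in controls against 4832 and 5800, 1.44-fold higher. Col1a2 (chr6:4504814-4541544, plus strand), the alpha2 chain of type I collagen, stood at 64.8 and 41.2 against 239.8 and 275.4, 4.86-fold higher. Col1a2 had the lowest level of the 9 per kilobase of exon in both groups, and the groups did not overlap for either gene. Gm43921 lies within the Col1a2 locus and shares 0 bases with its exons.

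**Figure D1:**
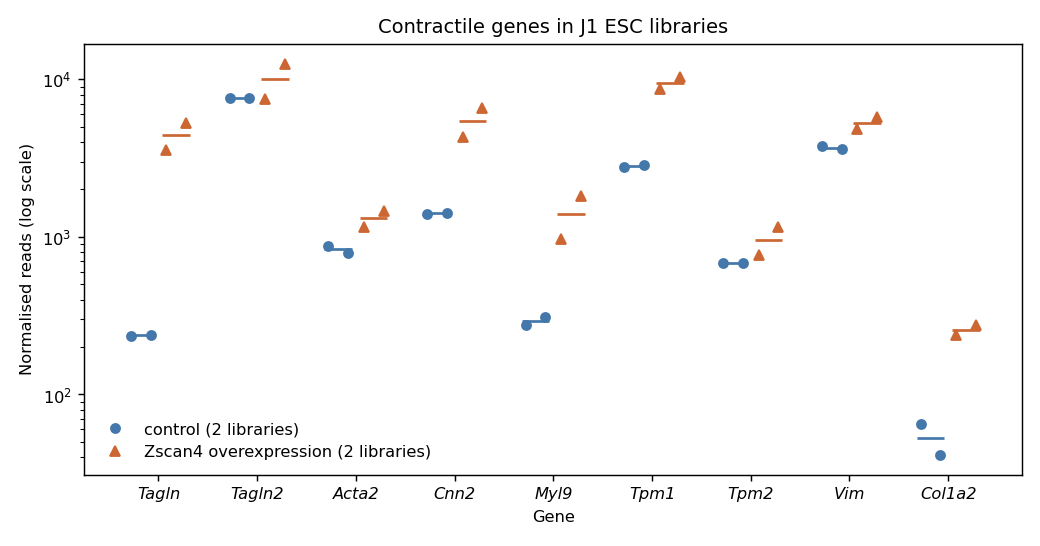
Normalised reads (log axis) of the 9 contractile genes in each ESC library; circles are the 2 controls, triangles the 2 Zscan4 overexpression libraries, and bars the group means. Tagln moves from 237 to 4424 on average, the groups of Tagln2 overlap, and the second overexpression library is the higher of its pair for every gene.

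The second overexpression library stood above the first for all 9 genes. The summed level of the 9 was 17707 and 17551 in the controls and 31964 and 45208 in the first and second overexpression library. The spread between the overexpression libraries therefore limits the size given for each gene: the SD was 1186 around a mean of 4424 for Tagln, and 602 around 1397 for Myl9. Over the other settings tried, the log2 difference ran from 3.91 to 4.47 for Tagln, from 1.73 to 2.64 for Myl9, from 1.60 to 2.22 for Cnn2 and from 0.18 to 0.75 for Tpm2.

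Per kilobase of exon, the order of the genes shifted between the groups. In control ESCs the order of the mean levels was Tagln2 (3658 normalised reads per kb), Vim (778), Cnn2 (572), Tpm1 (434), Acta2 (380.5), Myl9 (251), Tpm2 (235), Tagln (119) and Col1a2 (4.26). Tagln was thus 8th of 9 in the controls. With overexpression it was 2nd, at 2225 per kb with libraries at 1804 and 2647, behind Tagln2 at 4818. Its range overlapped that of Cnn2 (1740 and 2659), and Myl9 (1202) and Vim (1121) were likewise within each other's spread. In the controls Myl9 (236 and 267) and Tpm2 (234 and 236) did not differ beyond their spread.

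**Figure D2:**
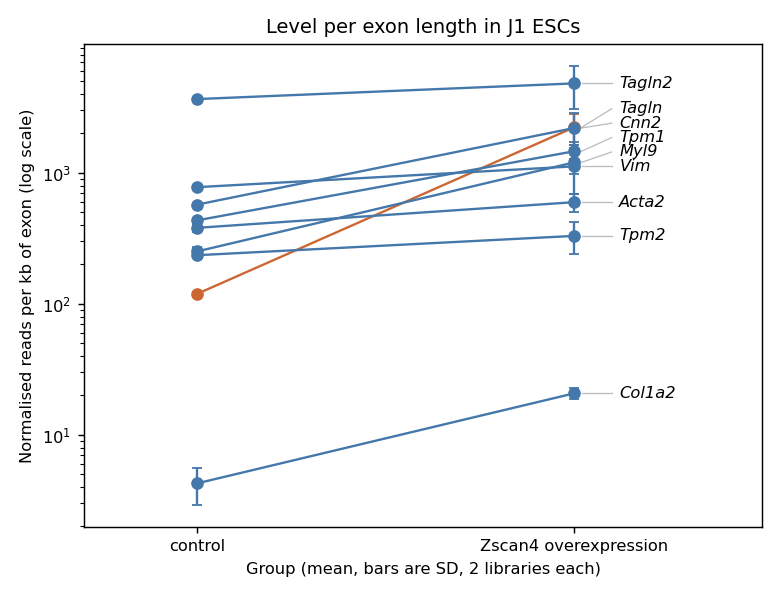
Mean normalised reads per kilobase of exon (log axis) in control and Zscan4 overexpression ESCs, with SD bars over 2 libraries per group and 1 line per gene. Tagln (orange) goes from 119 to 2225 per kb and crosses the lines of 6 other genes, while Tagln2 is highest in both groups.

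The genes whose 4-library ESC pattern lay nearest to that of Tagln were named by distance between centred log2 values, among 11371 genes with a mean of at least 100 normalised reads. They were Sntg1 (distance 0.090), Foxd3 (0.101), Wdr45 (0.256), Lpar6 (0.363) and Nxf7 (0.398). Sntg1, a syntrophin gene, had 92.4 and 95.5 normalised reads in controls against 1334 and 2111, and Foxd3, a forkhead factor gene known from ESCs, was 19.8-fold higher. These distances rest on 4 libraries and on the same contrast, and none of the 5 belongs to the gene lists used here.

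The lists of related genes were tested with limma over all 20888 ESC genes, of which 23.2% passed the threshold of 0.05 on the adjusted p, 11.7% higher and 11.4% lower. Of 198 tested genes in 13 lists outside the 10, 68 passed, 50 higher and 18 lower. No call over all genes, Pcsk7 and these 68 included, held with either control library left out (0 called; of the list genes, 50 or 51 at an unadjusted p under 0.05) or with the residual spread estimated on overexpression libraries only (0 called; 62 unadjusted).

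Among 20 other actin isoform and smooth muscle contractile genes, 5 rose and 3 fell, with a median log2 fold change of 0.74. Acta1, skeletal muscle actin, rose from 53.8 ± 0.657 to 416.5 ± 78.6 normalised reads (7.74-fold, limma adjusted p = 0.0123). Tpm3, a further tropomyosin gene, rose from 6803 ± 286 to 17562 ± 966 (2.58-fold, adjusted p = 0.0165). The cardiac actin gene Actc1 moved the other way, from 105.7 ± 8.06 to 4.21 ± 0.793 (25.1-fold lower, adjusted p = 0.0119), as did the Z-disc gene Ldb3, 21.4-fold lower. The striated muscle genes that passed thus did not share a direction.

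Of 7 further paralogs of the 10 genes, named here after their values were seen, 1 passed. Actb, cytoplasmic beta-actin, had 38960 ± 360 and 62333 ± 4813 normalised reads (1.60-fold, limma adjusted p = 0.0691), and Actg1 had 89657 ± 1727 and 80635 ± 6563 (adjusted p = 0.611). Tagln3 (adjusted p = 0.183), Cnn3 (0.584) and Tpm4 (0.0738) did not pass either. Myl12a, a non-muscle counterpart of Myl9, rose 2.64-fold (adjusted p = 0.0318), whereas Myl12b did not pass (0.274). Myl12a and Myl12b share exon bases with each other, so the split between them is uncertain.

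Of 39 non-muscle actomyosin and stress fibre genes tested, 11 rose and 0 fell by limma, with a median of 0.50. At an unadjusted p under 0.05, 18 were higher and 3 lower, and edgeR called 15 higher and 0 lower, DESeq2 15 and 1, voom 18 and 1. Tln1, which links integrins to actin, rose 2.82-fold from 2340 ± 149 to 6602 ± 191 (adjusted p = 0.0142). Actn4, an actin crosslinker, rose 2.46-fold, and the focal adhesion genes Ilk and Parva rose 4.01-fold and 2.57-fold. Tln1, Actn4 and Ilk each overlap another gene and are uncertain for that reason.

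Upstream of these genes, Srf, the factor gene itself, rose from 1060 ± 84.4 to 2399 ± 181 (2.26-fold, limma adjusted p = 0.0208). Its cofactor genes Mkl1 (616 ± 32.5 and 724 ± 59.9, adjusted p = 0.385) and Mkl2 (440 ± 62.1 and 554 ± 262, 0.667) did not pass, nor did Yap1 (0.139); these 3 were named after their values were seen. Among 22 known SRF, YAP and TGF-beta target genes, 11 rose and 2 fell, with a median of 1.13. Cyr61 rose 8.08-fold from 382 ± 18.7 to 3085 ± 295.5 (adjusted p = 0.0112), Ctgf 10.4-fold and the immediate early gene Fosb 13.0-fold. Tgfbi, a secreted TGF-beta target, fell 6.69-fold from 616 ± 4.84 to 92.1 ± 23.2 (adjusted p = 0.0134).

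The TGF-beta ligand, receptor and effector list was split. Of 16 tested, 3 rose and 3 fell, with a median of -0.22. Nodal, the ligand of mesendoderm induction, rose 5.53-fold, and Tgfb2 rose 9.70-fold from 8.50 ± 0.104 to 82.5 ± 23.9. The signal transducer Smad3 fell 4.56-fold and the co-receptor Tgfbr3 fell 8.41-fold. Tgfb2 and Tgfbr3 overlap other genes and are uncertain.

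**Figure D3:**
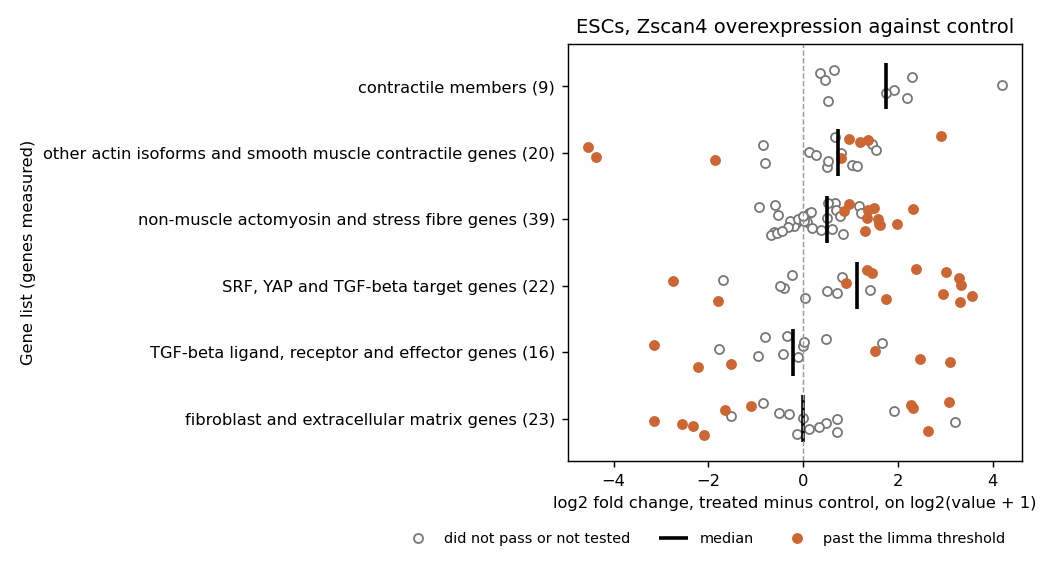
Log2 fold change in ESCs (horizontal axis, overexpression minus control on log2(value + 1)) of each gene, by list; filled points passed the limma threshold, black bars are medians, and the 9 contractile genes were not tested. Medians are 1.75 for the contractile genes, 1.13 for SRF, YAP and TGF-beta targets and -0.00 for fibroblast and matrix genes.

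Markers of cell types that carry these proteins did not move as a block in ESCs. Of 5 defining smooth muscle genes, 1 passed in limma and DESeq2, and 1 of the 4 tested in edgeR and voom. It was Des, the muscle intermediate filament gene, at 3.41-fold lower (limma adjusted p = 0.0401, but 0.0648 with quantile normalisation). Their summed level was 1484 to 1543 in the controls and 427 to 795 with overexpression. Des alone held 1390 ± 29.8 and 408 ± 208 of it, so the lower sum repeats the result for Des. Actg2 and Lmod1 stood 3.58-fold and 1.41-fold higher but did not pass (limma adjusted p = 0.226 and 0.230). The median log2 fold change of the 5 genes was 0.28. Myocd, the smooth muscle cofactor of SRF, had 7 and 9 reads in the control and overexpression groups, and Myh11, smooth muscle myosin, 17.5 ± 2.22 and 21.4 ± 1.84 normalised reads. Of 23 fibroblast and matrix genes tested, 4 rose and 6 fell; Bgn rose 8.49-fold and Lgals1 5.23-fold, and Fstl1 fell 8.85-fold and Pdgfrb 5.92-fold. The call of Bgn also ended without overexpression library 2 (adjusted p = 0.0532). Col3a1 and Col5a2 also rose, and Col6a2, Thy1, Twist1 and Cdh2 also fell. Among these collagen genes, Col3a1 rose from 8.01 ± 1.91 to 56.1 ± 20.1 normalised reads (limma adjusted p = 0.02765), and it overlaps another gene. Col5a2 rose from 32.1 ± 6.29 to 165 ± 66.1 (0.0294) and Col6a2 fell from 76.5 ± 10.3 to 15.1 ± 7.24 (0.0349). Col5a1 did not pass (0.988). Lum and Dcn, defining fibroblast genes, had 0 reads in the controls and 2 and 3 reads with overexpression. The summed fibroblast list ran from 40945 to 44345 in the controls and from 37388 to 53195 with overexpression.

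Beside Vim, 13 other intermediate filament and lamin genes were tested, of which 6 rose and 3 fell. The simple-epithelium keratins led: Krt8 rose 29.9-fold from 660 ± 32.1 to 19717 ± 5770, and Krt18 33.0-fold from 517 ± 11.6 to 17063 ± 5555 (limma adjusted p = 0.0112 for each). Vim stood 1.44-fold higher in the same libraries.

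The second comparison asks whether the same genes differ when 2-cell embryos receive Zscan4 RNAi. The contrast was not used to choose the genes, so they were tested with limma over all 16417 embryo genes, where 18.2% passed, 6.13% higher and 12.0% lower. Tagln2 fell 6.98-fold, and Myl9 and Cnn2 were also lower past the threshold, though on few reads. Cnn1 and Vim did not pass. Tagln, Acta2, Tpm1, Tpm2 and Col1a2 were below the filter, which asks for a value of 1 or more in 5 or more libraries. Myl9 met that filter with all 5 controls and only 1 RNAi library, so its place among the tested genes itself depended on the controls. Cnn2 met it with all 5 controls and 3 RNAi libraries, so its place depended on the controls too. The p-values of Myl9 and Cnn2 are therefore not read as support. No count over the 5 tested genes is read as support.

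Tagln2 had 187.8, 45.7, 233.8, 141.7 and 107.5 normalised reads in control columns 1 to 5 and 18.5, 26.2, 1.304, 43.0, 32.5 and 1.74 in RNAi libraries 1 to 6. The lowest control, 45.7, lay above the highest RNAi library, 43.0, so the groups did not overlap, as in 4.28% of all genes tested toward lower values. The means were 143.3 ± 72.4 (n = 5) and 20.5 ± 16.8 (n = 6), a log2 fold change of -3.27 (SE 0.69, limma adjusted p = 0.00508), and the exact two-sided permutation p over all 462 assignments of the libraries was 0.00433. Tagln2 was lower in 6 of 6 RNAi libraries and passed in each of the 19 other settings tried. The Zscan4 sums of RNAi libraries 1 to 6 were 262, 164, 379, 13.9, 383 and 174. Library 4 was thus lowest in Zscan4 and highest in Tagln2, and libraries 3 and 5 lay above control 5 (345). A link between Zscan4 and Tagln2 levels across libraries was not tested.

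Other values moved with the groups. The summed oocyte and 2-cell markers were 3697 to 6721 in the controls and 5458 to 13623 with RNAi, where 3 of 10 rose and 1 fell, Zscan4d, of the family that the RNAi targets. The summed cumulus and granulosa markers, the cells that surround the oocyte, were 60.9 to 76.0 in the controls and 10.4 to 53.4 with RNAi, with 3 of the 10 genes at 0 in each group. Neither of the 2 cumulus genes tested passed, with 1 lower at an unadjusted p under 0.05. The list was not specific to these cells. In control ESCs Nr5a2, named after its values were seen, held a mean of 2346 of the summed 2576 normalised reads. Which gene carried the embryo sum is not given here. Blood cell markers summed to 39.1 to 106 and 6.52 to 139, and 1 of 2 tested fell, Cd74, a call that ended in edgeR (adjusted p = 0.0818), in voom (0.0820) and without control 3 (0.0584). The part of these differences in the result for Tagln2 was not tested.

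Myl9 had 13.4, 2.95, 33.4, 2.34 and 1.96 normalised reads in controls 1 to 5 and 0, 0.820, 0, 0, 5.41 and 0 with RNAi, from 48 and 7 reads in all. Controls 1 and 3 were high, and RNAi library 5 lay above 3 of the controls, so the groups overlapped. The log2 fold change was -2.26 (SE 0.72, limma adjusted p = 0.0353; exact permutation p = 0.0173). The call ended in 7 of 16 other settings, among them without control 1 (0.0833), control 3 (0.105) and each of RNAi libraries 1, 3, 4 and 6 (0.0653 to 0.0726).

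Cnn2 had 7.55, 17.0, 11.1, 9.37 and 22.5 normalised reads in controls 1 to 5 and 1.37, 12.3, 0, 0, 14.4 and 0 with RNAi. It was read in 5 of 5 controls and in 3 of 6 RNAi libraries, of which libraries 2 and 5 lay within the control range. The log2 fold change was -2.27 (SE 0.78, limma adjusted p = 0.0472, exact permutation p = 0.0433). Because Cnn2 met the filter through the controls, these p-values are given as a description only. This call ended in 16 of 18 other settings, at adjusted p up to 0.235, and held without RNAi library 2 or RNAi library 5.

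Cnn1 (chr9:22099216-22109630, plus strand), the calponin of differentiated smooth muscle, was the second most abundant of the 10 per kilobase in control embryos, at 21.9 against 68.8 for Tagln2. It had 57.9, 71.6, 76.5, 37.5 and 55.7 normalised reads in controls 1 to 5 and 63.9, 29.5, 109.5, 126.5, 101 and 70.3 with RNAi. The highest and the lowest values both came from RNAi libraries, and the groups overlapped (log2 fold change 0.37, SE 0.38, limma adjusted p = 0.520). With RNAi, Cnn1 ranked first at 30.5 per kb and Tagln2 second at 9.86.

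**Figure D4:**
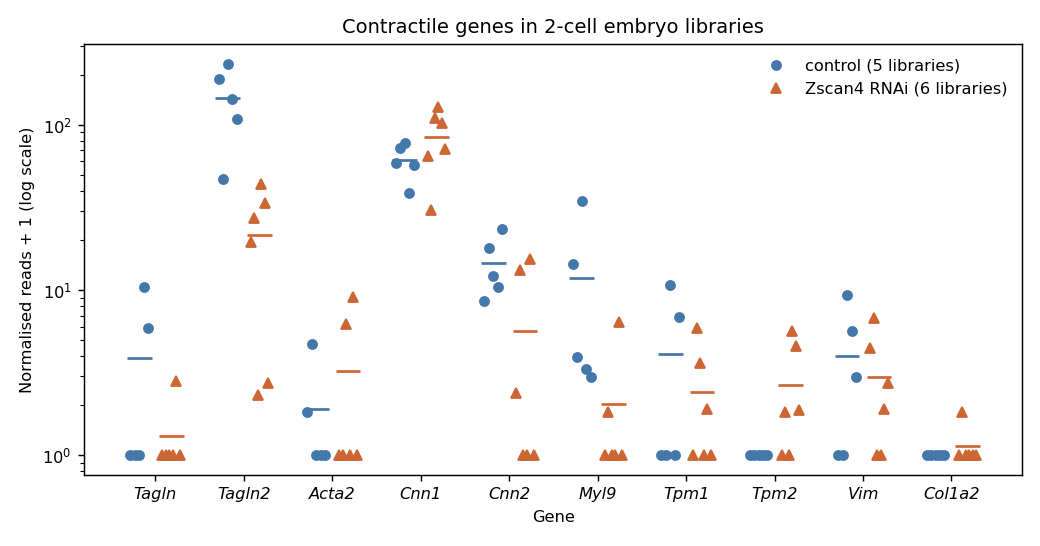
Normalised reads plus 1 (log axis) of the 10 genes in each 2-cell embryo library; circles are the 5 controls, triangles the 6 Zscan4 RNAi libraries, and bars the group means. The Tagln2 groups separate at 45.7 and 43.0, Cnn1 overlaps, and Tagln, Acta2, Tpm1, Tpm2 and Col1a2 sit at or near 0.

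The remaining genes were close to the limit of detection in embryos. Vim had 12 reads in the controls and 15 with RNAi (limma adjusted p = 0.839). Tagln had 8 reads in control 4, 5 in control 5 and 2 in RNAi library 5, and 0 elsewhere (exact permutation p = 0.303). The antisense gene Gm48529 was read in the same 3 libraries, with 8 reads in control 4, 6 in control 5 and 3 in RNAi library 5, and also had 3 in RNAi library 4. Reads of Tagln and Gm48529 cannot be told apart there.

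Acta2 had 6 reads in the controls and 13 with RNAi, 9 of the latter in library 5 (exact permutation p = 0.697), and Tpm1 had 13 and 9 (0.643). Tpm2 was not read in the controls and had 10 reads over 4 of the 6 RNAi libraries (exact permutation p = 0.0606). Col1a2 had 0 and 1 read. A count of 0 among the 4829189 control reads allows up to 3 reads over the group (counting error only). The 10 Tpm2 reads among 6584666 with RNAi lay above that limit, but 2 of the 6 RNAi libraries were at 0 like the controls. The 1 read of Col1a2 lay below it, so for Col1a2 a difference was not detectable at this depth.

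Of 142 tested list genes outside the 10, 21 passed in embryos, 11 higher and 10 lower. Of all 16417 genes tested, 18.2% passed, 6.13% higher and 12.0% lower, and their median was -0.03. The list genes thus passed no more often than genes at large, and nothing is read from that count. Tpm3, a tropomyosin gene, fell 3.35-fold from 249.7 ± 86.9 to 74.5 ± 36.5 (limma adjusted p = 0.00556), and Csrp1, a LIM protein of smooth muscle, rose 7.99-fold from 3.25 ± 4.38 to 25.9 ± 22.5; these were the genes that passed among 11 of the other actin and smooth muscle list (median 0.60). Of 37 non-muscle actomyosin genes, 2 passed (median -0.26), with 5 higher and 2 lower at an unadjusted p under 0.05: the myosin light chain genes Myl12a, 2.15-fold (adjusted p = 0.0157), and Myl12b, 1.80-fold (0.0423). Both overlap each other, the call of Myl12a ended without control 2 (0.0502), and that of Myl12b ended in 10 of 19 other settings. Actb (293 ± 63.2 and 216 ± 57.0, limma adjusted p = 0.255) did not pass.

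Among 10 tested SRF, YAP and TGF-beta targets, 3 fell (median -0.80) and 0 rose. Of the 5 genes that edgeR and voom tested, each put 3 lower and 0 higher. DESeq2 tested 9 and put 4 lower and 0 higher. At an unadjusted p under 0.05 limma put 4 lower and 0 higher, and DESeq2 4 lower and 1 higher. Smad7, the inhibitor that TGF-beta signalling induces, fell 6.79-fold from 70.0 ± 21.7 to 10.3 ± 13.4 without overlap of the groups (adjusted p = 0.00473). Ier2 fell 3.46-fold (0.00988) and Skil 3.65-fold (0.0210), the latter not passing without control 1, 3 or 4. Of 10 TGF-beta genes, 2 rose (median -0.27), Tgfb3 2.85-fold and Tgfb2 1.78-fold, the latter passing in 9 of 19 other settings.

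Fibroblast and smooth muscle markers were scarce in embryos. Of 10 fibroblast and matrix genes tested, Bgn was higher (6.98-fold, limma adjusted p = 0.0223) and Lgals1 lower (2.48-fold, 0.0375). Their calls ended in 5 of 16 and 9 of 19 other settings. Bgn was not read in controls 2, 3 and 4, so its place among the tested genes depended on the RNAi libraries. The summed smooth muscle genes were 4.68 to 17.6 in control and 15.6 to 33.0 in RNAi libraries. By limma 0 of 3 tested passed, with 2 higher at an unadjusted p under 0.05. By edgeR 0 of 1 tested passed, by DESeq2 0 of 2 and by voom 1 of 1. Of 8 other intermediate filament genes tested by limma, 0 passed (1 at an unadjusted p under 0.05). By edgeR 0 of 5 tested passed, by DESeq2 0 of 6 and by voom 1 of 5.

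**Figure D5:**
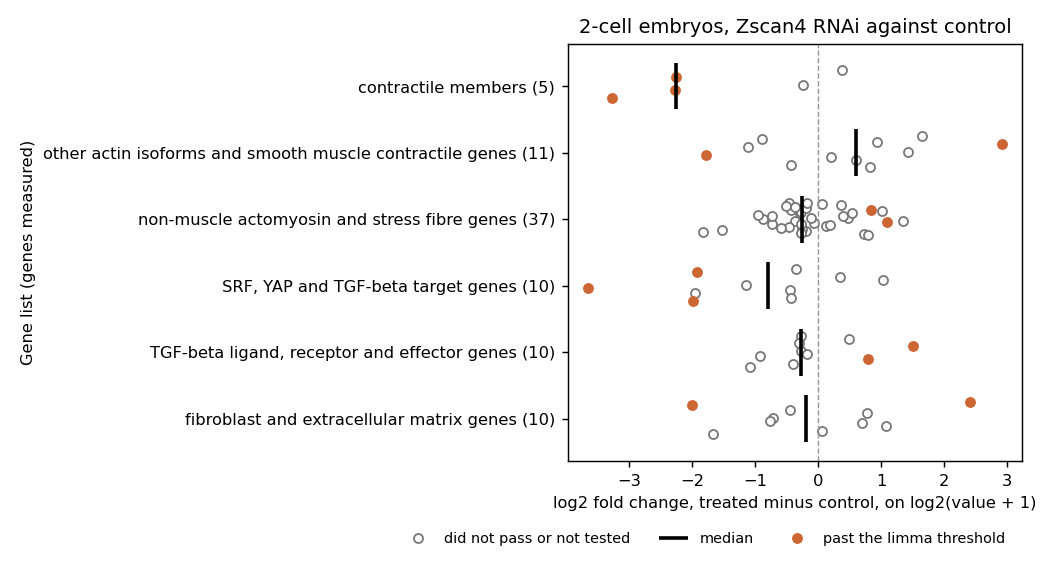
Log2 fold change in 2-cell embryos (horizontal axis, RNAi minus control on log2(value + 1)) of each gene tested, by list; filled points passed the limma threshold and black bars are medians. The contractile genes tested are 5, with Tagln2 at -3.27, and the medians of the 5 other lists drawn lie between -0.80 and 0.60.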

How the data were processed

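Per the submitters' processing notes, the tools were Trimmomatic, HISAT2 and featureCounts with mm10; no source used here gives their versions, the annotation or the strand setting. The deposited unit is a signal, the authors' read counts per gene after division by a size factor for each library. This was read from the values, 100% of which were whole reads within 0.01 of 1 read. Whole reads were recovered from these steps. The tables were normalised separately, so levels were compared only within a table. Embryo control columns are numbered 1 to 5 and the labels number them otherwise, so the numbers only name columns. Positions and exon lengths came from GENCODE vM21; 51264 ESC identifiers were found there.

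The test was limma (3.58.1, R 4.3.3) with a mean-variance trend, applied to log2(value + 1) of the genes reaching 1 in 2 or more ESC libraries or 5 or more embryo libraries, with Benjamini-Hochberg adjustment over all genes tested and a threshold of 0.05. The scale understates changes of low genes. Alternatives were edgeR (4.0.16) and DESeq2 (1.42.0) on the recovered reads, voom, other pseudocounts, filters and scaling, a replicate block, and leaving out each library. The code was tested on simulated data. The 10 genes and the 13 other lists (211 genes) were chosen with earlier results of these data known. The results of 1 list are not reported here. Named were all 10 genes, up to 4 genes past the threshold per list by smallest p, overlapping genes and the 5 genes nearest to Tagln. Genes named beyond these were chosen after their values were seen, and not all are marked where they appear. The unmarked ones include Actg2, Lmod1, Myh11, Myocd, Lum, Dcn and the further called fibroblast genes in ESCs, and Actb in embryos.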

Additional observations from a re-analysis of the deposited data

Results flagged for a closer look

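In 20 groups of 5 or 6 embryo libraries, the gap between an extreme library and its nearest neighbour was compared with the range of the group on the log2(value + 1) scale, a test by which chance marks about 1 in 20. That rate does not apply to groups mostly at 0, as for Tagln and Col1a2, where 1 or 2 reads decide the outcome. The test marked 4 values. RNAi library 5 held 1.803 normalised reads of Tagln where the other RNAi libraries held 0. The same library held 5.41 of Myl9, with the next at 0.820. RNAi library 2 held 0.8199 of Col1a2, which is 1 read, where the others held 0. RNAi library 4 had the lowest sum of Zscan4 genes, 13.93 normalised reads, with the next at 164.0.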

How the results depend on the processing

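ESC calls over all genes numbered 4843, 2453 higher and 2390 lower; voom gave 2310 and 1457. With the residual spread estimated on overexpression libraries only, limma called 0 of all genes (4935 at an unadjusted p under 0.05) and 0 of 198 list genes, where 68 were called before (62 unadjusted). Leaving out 1 library gave 0 to 10855 calls over all genes and 0 to 137 among list genes. The calls ended with control 1 or control 2 left out. In those fits 1 control remained, so the residual spread again came from the overexpression libraries only. The replicate block gave 6024 calls over all genes and 75 among list genes. Same-numbered ESC libraries did not deviate together (r = -0.03 across 15888 genes, which are not independent replicates). With 2 libraries a group this value cannot decide whether libraries were paired, so the numbers were taken only as names. No paired analysis was possible for the embryos because their control columns do not carry the numbers of the labels.

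Embryo calls numbered 2983, and 1730 to 3578 with 1 library left out (1730, 1934 and 1755 without control 2, 3 and 4). The split of 1007 higher and 1976 lower became 1396 and 1609 with quantile scaling, 1103 and 1314 in edgeR and 1638 and 1916 in voom; quantile scaling moved the median of all genes to 0.14 (log2). Of the 3 called contractile genes, 1 was called with no filter, with a mean of at least 10, in edgeR and in voom, and 1 to 3 with 1 library left out; the mean filter, edgeR and voom tested 2, 3 and 3 contractile genes in place of 5. Where the lost genes were tested, the cause was not tested. The 21 list genes became 9 to 28 with 1 library left out, with 12, 9, 9 and 12 without control 2, 3, 4 and RNAi library 6. The log2 fold change of Vim, -0.25 with all libraries, ran from -0.61 to 0.20 with 1 left out, reversing without control 3 (0.20) and control 4 (0.016), and did not pass in either. Precision is limited by 1 read being worth up to 1.39 normalised reads in embryos and by 2 libraries a group in ESCs.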

Other observations

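Of 11 basement membrane and primitive endoderm genes tested in ESCs, 2 rose and 1 fell (median log2 fold change 0.56). The neighbouring type IV collagen genes Col4a2 and Col4a1, which overlap each other, rose 3.05-fold (limma adjusted p = 0.0138) and 2.28-fold (0.0305), and the laminin gene Lama1 fell 2.45-fold (0.0238). Of 8 ESC markers, 2 passed: Zfp42, 2.99-fold (0.0152), and Lin28a, 2.04-fold (0.0225). Of 7 oocyte and 2-cell markers tested in ESCs, 3 rose: Zscan4d, of the overexpressed family itself, Bmp15, and the zona pellucida gene Zp3, 6.02-fold. Of 10 cumulus and granulosa markers tested in ESCs, 2 rose and 1 fell, with Ptgs2, prostaglandin synthase 2, at 14.7-fold higher and Tnfaip6 at 14.4-fold higher. Of 3 blood cell markers tested in ESCs, 0 passed by limma or DESeq2, and 0 at an unadjusted p under 0.05. The 1 that edgeR tested did not pass either. All of these ESC calls ended without either control library.

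In embryos, Bmp15, an oocyte growth factor gene, was higher with Zscan4 RNAi, at 1192 ± 501 normalised reads in 5 controls and 3892 ± 1523 in 6 RNAi libraries (3.27-fold, limma adjusted p = 0.00338), and the groups did not overlap. Gdf9 and Ooep were also higher and Zscan4d lower past the threshold, but these calls ended in 6, 9 and 10 of 19 other settings, at adjusted p up to 0.0928, 0.0941 and 0.109; without controls 1 to 4 in turn, Zscan4d gave 0.0971, 0.109, 0.0880 and 0.0787. Of 10 basement membrane genes, 2 were higher, Col4a1 and Dab2. The call of Col4a1 ended in 9 of 15 other settings (up to 0.0869) and that of Dab2 in 7 of 19 (up to 0.105), for both also without control 2, 3 or 4. Col4a1 was not read in controls 1 to 4, so its place among the tested genes depended on the RNAi libraries. In embryos, 0 of 8 ESC markers passed by limma (2 at an unadjusted p under 0.05). The other tools tested 5 each, of which 0 passed by edgeR or DESeq2 and 2 by voom.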
